A study of Sus scrofa with 4 samples.

Results

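Transcripts of 8 secreted antimicrobial proteins and lectins were examined in the ileum of suckling piglets aged 16 days. The genes were *BPI*, *BPIFB1*, *LYZ*, *PMAP-23*, *PGLYRP1*, *REG3G*, *ITLN2* and *SFTPD*, out of 2389 pig genes that could be named on the array, and they were read by 15 of its 43603 non-control probes. A probe was taken for a gene when the array design gave it a RefSeq transcript of that gene. The genes were chosen by their role and by signal differences seen earlier in this same comparison, so that every difference given for them between the groups is a description and carries no test.

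RNA was taken from ileum slices of piglets that suckled lactating sows, with Yorkshire × Landrace dams and Duroc sires. One group was of low weight gain, with 2 arrays of RNA pooled from 2 piglets, and the other was of high weight gain, with 2 arrays of RNA pooled from 3 piglets. Each array carried 1 Cy3-labelled sample, named a or b within its group. The design text of the series speaks of weight at birth where the sample labels speak of weight gain, and the labels were followed here. It is not clear from them whether a and b hold RNA pooled separately or 1 pool measured again. Their spread may be only technical, and the variation among piglets is unknown. The title of the series names immune development as the subject of the comparison.

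The proteins act on microbes outside host cells. Lysozyme cuts peptidoglycan of the bacterial wall, the peptidoglycan recognition protein binds it, the bactericidal/permeability-increasing protein BPI binds endotoxin of Gram-negative bacteria, and cathelicidins such as PMAP-23 are released from precursors as short peptides that disrupt membranes. Lectins recognise sugars on microbial surfaces. In mice, REG3G is secreted by the small-intestinal epithelium and limits contact between bacteria and the mucosa. Surfactant protein D, the product of *SFTPD*, is a collectin best known from the lung lining.

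Values are log2 processed signals minus the 75th percentile of the same array, so that 0 marks a spot at that percentile and a step of 1 is a 2-fold change. Levels of different probes cannot be ranked against each other, since probes differ in how well they bind. Between 32835 and 33972 non-control spots per array passed the scanner's flag for signal well above background. The ileal bile acid binding protein gene *FABP6* gave 8.65 and 8.72 on the low-gain arrays and 8.55 and 8.76 on the high-gain arrays, and all 6 enterocyte markers with a named probe were measured. No spot was saturated.

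Of the 8 genes, 5 had higher and 2 had lower signals in low-gain ileum, and 1, *BPIFB1*, was too dim in low gain for more than a bound. *BPI*, *SFTPD*, *ITLN2*, *REG3G* and *PGLYRP1* were on the higher side, with log2 differences of 2.45, 1.87, 1.40, 1.06 and 0.45 on their brightest probes. *PMAP-23* and *LYZ* were on the lower side, at -2.71 and -1.52, with *PMAP-23* near background in low gain. *BPIFB1* was at least 1.36-fold lower in the processed signals, but its direction did not hold under every background treatment. For 14 of the 15 probes, the signal passed the background flag on both arrays of 1 or both groups, which was the condition for entering the fit over all probes, and 12 were so on all 4 arrays. Both low-gain arrays lay above both high-gain arrays for 9 of these 14 probes, against 27.6% of all 33265 probes in the fit, and below them for the other 5, against 26.9%. Of those 5, the probes of *BPIFB1* and *PMAP-23* entered the fit only through high gain, the group where they were higher. In that fit, made with limma, 6 of the 14 passed an adjusted p of 0.05, against 0.240% of all probes. These counts follow from how the genes were chosen and show nothing further about them.

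**Figure D1:**
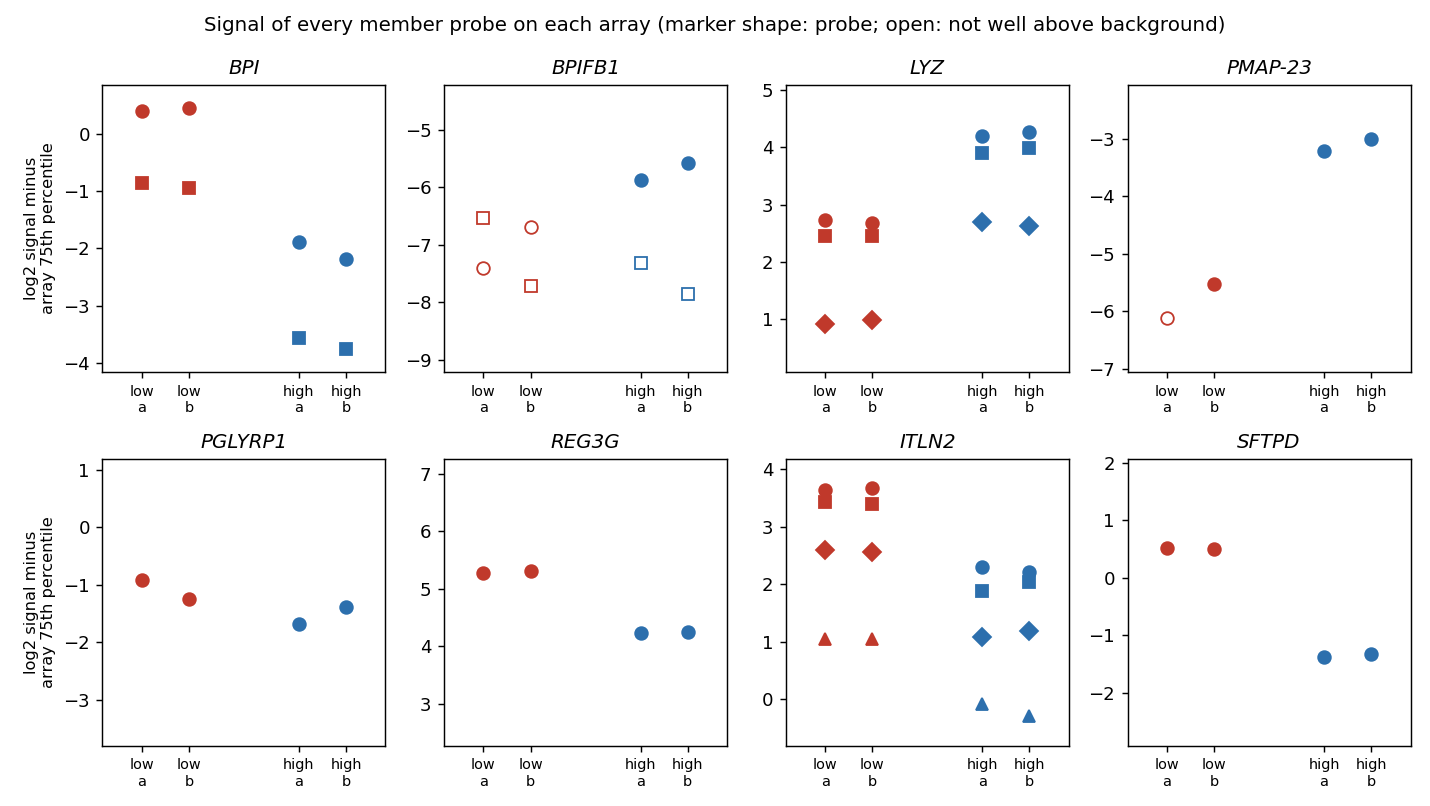
Normalised log2 signal (vertical axes, all of the same length) of every probe of the 8 genes on the low-gain arrays (red, left) and the high-gain arrays (blue, right), with 1 marker shape per probe and open markers where the spot was not well above background. The filled markers of *BPI*, *REG3G*, *ITLN2* and *SFTPD* sit higher on the left, those of *LYZ* and *PMAP-23* sit higher on the right, and the step of *PGLYRP1* is 0.45.

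*BPI*, the endotoxin-binding protein of neutrophil granules and of epithelia, had 2 probes. The brighter gave 0.39 and 0.45 on the low-gain arrays, against -1.89 and -2.18 on the high-gain arrays. Both low-gain values lay above both high-gain values, with a gap of 2.28 between the nearest arrays. The log2 difference was 2.45 ± 0.14 (SE, n = 2 arrays per group), a 5.48-fold higher signal. Here and below, the SE is that of the limma fit, which also draws on the spread of all probes in it. The second probe gave -0.86 and -0.95 in low gain and -3.56 and -3.75 in high gain, a difference of 2.75 ± 0.12. It showed the same direction and a size within 0.29 of that of the brighter probe. With normexp background correction the difference of the brighter probe was 1.07, and that of the second was 0.82. With bright local backgrounds replaced before normexp, they were 1.98 and 1.67.

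*BPIFB1* belongs to the same protein fold family as *BPI* and encodes a secreted protein of airway and other mucosal surfaces. Its brighter probe gave -7.41 and -6.68 on the low-gain arrays, against -5.87 and -5.57 on the high-gain arrays. Neither low-gain spot was well above background, while both high-gain spots were, at processed intensities of 8.25 and 9.92 units. Only a bound can be given, and the signal was at least 1.36-fold lower in low gain. That bound is the ratio of the high-gain mean to the low-gain mean, with the array's lowest signal that passed the background flag put in for a dimmer low-gain value, and it carries no error. The scanner's own error was 71.4% and 29.9% of the signal in low gain and 20.4% and 16.8% in high gain. The fitted difference of -1.32 ± 0.29 was -0.65 in the deposited values, -0.07 with normexp and 0.01 with bright backgrounds replaced, so that its direction depended on the background treatment. The other *BPIFB1* probe was not well above background on any array.

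*LYZ* encodes lysozyme, which in the gut comes from Paneth cells in mice and humans and from macrophages. Its brightest probe gave 2.72 and 2.68 on the low-gain arrays, against 4.19 and 4.26 on the high-gain arrays. Both low-gain arrays lay below both high-gain arrays, and the arrays within a group differed by at most 0.061. The log2 difference was -1.52 ± 0.10, a 2.87-fold lower signal in low gain. The other probes gave -1.49 ± 0.10 and -1.71 ± 0.10, so that the 3 probes differed among themselves by up to 0.22. On the second probe the low-gain arrays read 2.45 and 2.45 and the high-gain arrays 3.90 and 3.98. On the dimmest they read 0.91 and 0.99 in low gain and 2.69 and 2.63 in high gain. All 3 probes separated the groups. With normexp the differences were -1.41, -1.34 and -1.25, from the brightest probe to the dimmest. Lysozyme genes are closely related to each other, and cross-hybridisation between them was not tested.

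*PGLYRP1* encodes a peptidoglycan recognition protein stored in neutrophil granules. Its 1 probe gave -0.92 and -1.25 on the low-gain arrays, against -1.68 and -1.39 on the high-gain arrays. The nearest arrays of the groups were 0.14 apart, less than the a to b differences of 0.32 within low gain and 0.30 within high gain. The difference of 0.45 ± 0.18 ran from 0.29 without low-gain array a to 0.61 without low-gain array b.

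*PMAP-23* encodes a porcine myeloid antimicrobial peptide of the cathelicidin family. Its 1 probe gave -6.12 and -5.52 on the low-gain arrays, against -3.21 and -3.00 on the high-gain arrays. In processed intensity this was 5.91 and 10.1 units in low gain and 52.0 and 59.0 units in high gain. The signal was well above background on low-gain array b and on both high-gain arrays, but not on low-gain array a. The log2 difference was -2.71 ± 0.24, a 6.56-fold lower signal in low gain, and -2.42 without low-gain array a. It was -2.62 in the deposited values, -0.56 with bright backgrounds replaced and -0.31 with normexp, which adds a constant of 50 intensity units and so compresses a signal of this size. The gene table lists PR-39 as another name of this entry although *PR39* has a record of its own, and cathelicidin transcripts share their precursor part, so the reading of this probe as 1 gene is uncertain.

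The 3 lectin genes were all higher in low gain. *REG3G*, a C-type lectin gene of the gut epithelium, gave 5.28 and 5.30 on the low-gain arrays, against 4.23 and 4.24 on the high-gain arrays. The arrays within each group were within 0.024 of each other, while the groups lay 1.06 ± 0.10 apart, a 2.08-fold higher signal in low gain. Processed intensities were 15968 and 18370 units in low gain and 9044 and 8898 units in high gain, far from background, and the difference was 1.03 with normexp and 1.04 in the deposited values.

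*ITLN2* encodes an intelectin, a lectin that binds sugars found on microbes, and had 4 probes. The brightest gave 3.64 and 3.67 on the low-gain arrays, against 2.30 and 2.22 on the high-gain arrays. The log2 difference was 1.40 ± 0.10, a 2.64-fold higher signal in low gain. On the other probes, from bright to dim, the differences were 1.46 ± 0.11, 1.45 ± 0.10 and 1.23 ± 0.12. All 4 probes had both low-gain arrays above both high-gain arrays, with gaps of 1.12 to 1.39 between the nearest arrays. The lowest was the dimmest probe, which read 1.04 and 1.04 in low gain and -0.08 and -0.30 in high gain, and it moved to 0.65 with normexp.

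*SFTPD*, the collectin gene, gave 0.53 and 0.51 on the low-gain arrays, against -1.37 and -1.33 on the high-gain arrays. The a to b differences were 0.018 in low gain and 0.042 in high gain, beside a group difference of 1.87 ± 0.10, a 3.65-fold higher signal in low gain. The difference was 1.89 in the deposited values, 1.60 with bright backgrounds replaced and 0.89 with normexp. Of the other surfactant genes with a named probe, 1 was measured. *SFTPA1* and *SFTPC* were not well above background on both arrays of either group, and *SFTPB* differed by -0.09 ± 0.36 (limma adjusted p = 0.906), with -0.76 on its other probe. *MBL1*, a collectin gene that lies next to *SFTPD* in the gene table, was likewise too dim to enter the fit.

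**Figure D2:**
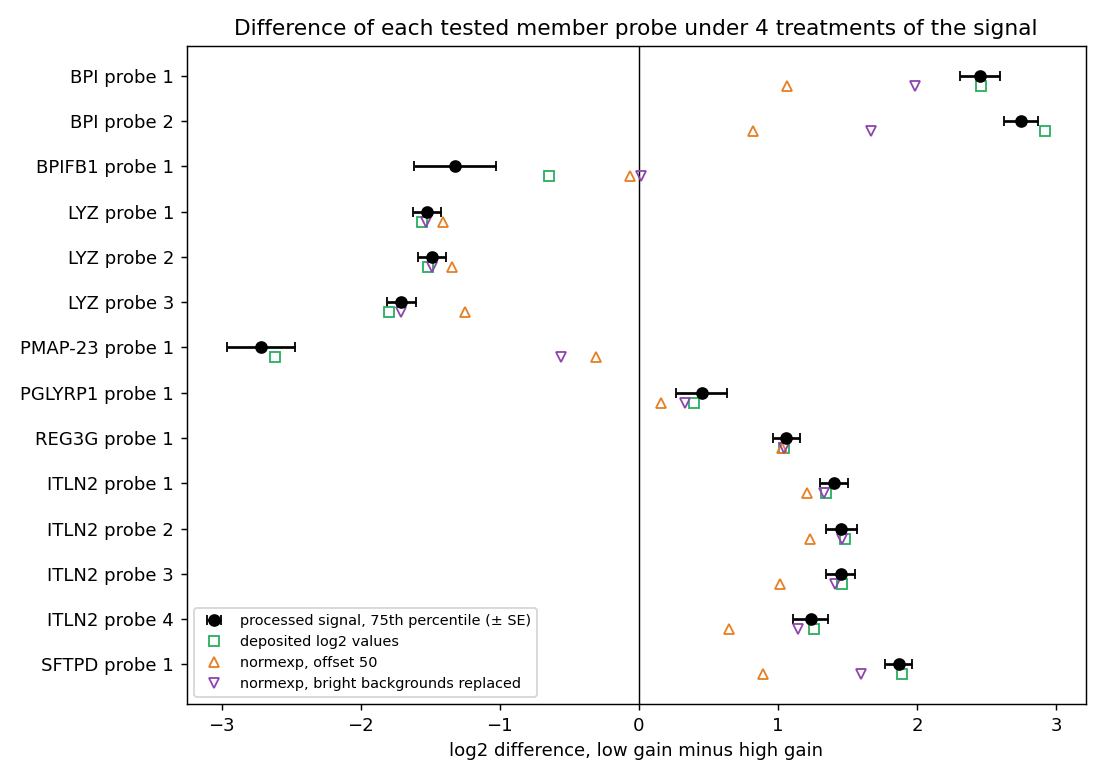
Log2 difference, low gain minus high gain (horizontal axis), of the 14 probes that entered the fit, from processed signals (black, bars are ± SE of the limma fit), the deposited values and both normexp corrections (open markers). The brightest probes of *LYZ*, *REG3G* and *ITLN2* lie at -1.41, 1.03 and 1.21 under normexp with offset 50, whereas those of *PMAP-23* and *BPIFB1* move from -2.71 and -1.32 to between -0.56 and 0.01 under normexp.

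Probes of the 8 genes were set beside the spread between arrays of 1 group. Over the 12 probes that passed the background flag on each array, arrays a and b differed without regard to sign by a median of 0.036 (low gain) and 0.087 (high gain), and the groups by a median of 1.47. Over all 33265 probes, which were not held to the flag on each array, the a to b medians were 0.14 in low gain and 0.15 in high gain. The median between groups was 0.21. The genes were chosen partly by their differences in this comparison, so their larger median between groups follows from that choice. *BPIFB1* and *PMAP-23* are not among the 12, and over the 14 probes in the fit the a to b difference in low gain reached 0.73. Leaving out any 1 array moved the differences of those 12 probes by at most 0.16. Each of the 15 probes was spotted once, so no repeat spots bear on them.

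Other antimicrobial and lectin genes served as a setting for the 8. A list of 114 gene names without the 8 genes had 56 on the array and 45 that entered the fit. None of the 45 passed the limma test over all probes (adjusted p under 0.05), against 0.417% of the 2158 named genes read by their brightest probe. At an unadjusted p under 0.05, 17 were higher and 1 was lower in low gain, which is 18 of 45, against 269 higher and 197 lower among the 2158 genes (21.6%). The list's median log2 difference was 0.34, beside 0.02 for all named genes. With the prior variance following signal intensity, 10 of the 45 rose and 1 fell, a setting in which 1250 of 33265 probes passed against 80 without it. The list was written with earlier results of these arrays known.

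Soluble and secreted lectins outside the 8 genes lay mostly on the higher side in low gain. Of 10 genes for ficolins, galectins, pentraxins and a chitinase-like protein, 9 were on the higher side, against 1153 of 2158 named genes. The median was 0.44, and 0 passed the test. Among the 9 were *LGALS8*, at 0.0035 with overlapping arrays, and *CHI3L1*, at 0.13 with -0.33 on its other probe. *FCN2*, a ficolin gene whose product marks microbes for complement, read 8.19 and 8.17 on the low-gain arrays and 6.85 and 7.16 on the high-gain arrays. Its difference of 1.18 ± 0.15 (limma adjusted p = 0.126) was joined by 0.85 on its other probe. *FCN1*, a ficolin gene of myeloid cells, differed by 0.85 ± 0.14 (limma adjusted p = 0.154). The *FCN1* difference was 0.60 with bright backgrounds replaced and 0.24 with normexp. Both genes passed in the fit with the intensity trend, as did the galectin genes *LGALS1*, *LGALS2* and *LGALS3*. *LGALS9* differed by 0.43 on its brightest probe, but its other probes gave -0.19 and 0.08.

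None of the 4 genes for C-type lectins, related surface proteins and surfactant that entered the fit passed the test. *CLEC7A*, a receptor for fungal glucans, was well above background on both low-gain arrays but on 1 of 2 high-gain arrays. Its difference of 1.38 ± 0.44 (limma adjusted p = 0.239) was 0.28 with bright backgrounds replaced and 0.09 with normexp. *DMBT1*, a secreted mucosal scavenger receptor that binds bacteria, read 4.44 and 4.61 in low gain and 3.77 and 3.75 in high gain. It differed by 0.77 ± 0.11 (limma adjusted p = 0.144), with 0.39 on its other probe. *REG4*, a relative of *REG3G*, differed by 0.67 ± 0.13 (limma adjusted p = 0.17). *DMBT1* and *REG4* passed with the intensity trend.

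The cathelicidin relatives of *PMAP-23*, which lie near it in the gene table, did not all run in its direction. *NPG4*, a protegrin gene, read -0.84 and -0.81 on the low-gain arrays and -0.23 and -0.04 on the high-gain arrays. Its difference was -0.69 ± 0.12 (limma adjusted p = 0.161), and its other 2 probes gave -0.73 each. It was the 1 gene of the list that passed on the lower side with the intensity trend. *PR39* was not well above background in high gain, so that its difference of 0.70 ± 0.39 (limma adjusted p = 0.412) rests on background there. It was 0.42 in the deposited values, 0.19 with bright backgrounds replaced and -0.0016 with normexp, so that its direction was not settled. *PMAP-36* differed by 0.51 ± 0.41 with overlapping arrays.

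Of the BPI fold, *LBP*, the endotoxin-binding neighbour of *BPI* in the gene table, differed by -0.04 ± 0.18 (limma adjusted p = 0.911) with overlapping groups. *PLTP*, a phospholipid transfer protein gene, differed by -0.62 ± 0.38, with -0.85 and -0.17 on its other probes. *BPIFB2* differed by 0.28 ± 0.14, with 0.58 on its other probe. With normexp the brightest probes gave -0.09 for *PLTP* and 0.06 for *BPIFB2*, and neither gene passed the test. *BPIFA1* and *BPIFA2*, which lie near *BPIFB1*, were too dim to enter the fit. None of the 4 genes that sense peptidoglycan or endotoxin passed: *CD14*, the endotoxin coreceptor gene, differed by -0.25 ± 0.14, *LY96* by -0.24 ± 0.11, *PGLYRP2* by 0.10 ± 0.12 and *NOD2* by -0.01 ± 0.19. The probes of a gene disagreed in part: the other probe of *CD14* gave -1.11, that of *PGLYRP2* gave -0.75 and that of *NOD2* gave -0.28, while the other 3 of *LY96* gave -0.40 to -0.18.

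Defensins and other small peptides and lytic enzymes were mixed. *DEFB1*, the beta-defensin 1 gene, differed by 0.22 ± 0.10, with 0.04 on its other probe. *DEFB129* differed by -0.56 ± 0.32 and the mucosal chemokine gene *CCL28* by 0.49 ± 0.12. The arrays of *DEFB129* overlapped between the groups. Its difference was -0.12 with normexp and 0.0004 with bright backgrounds replaced, so that its direction was not settled. Of the lytic enzymes and their relatives, *PLA2G1B*, a phospholipase gene, differed by 0.67 ± 0.29, which was 0.20 with bright backgrounds replaced and 0.06 with normexp. The ribonuclease gene *ANG* differed by 0.52 ± 0.12, with 0.42 and 0.54 on its other probes. None of these 5 passed the test, with limma adjusted p-values from 0.196 for *ANG* to 0.42 for *DEFB129*. The small peptide gene *ADM* (0.49 ± 0.10, limma adjusted p = 0.184) did not pass either, but it passed with the intensity trend.

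Metal-binding proteins, protease inhibitors and the antibody transporter gene *PIGR* had a median difference of 0.53 over 9 genes. Of these, 8 were higher in low gain, against 1153 of 2158 named genes, and 0 passed. *S100A8*, a calgranulin gene of neutrophils and macrophages, read -3.02 and -3.15 on the low-gain arrays and -4.36 and -3.93 on the high-gain arrays. Its difference of 1.06 ± 0.19 (limma adjusted p = 0.163) was 0.44 with bright backgrounds replaced and 0.22 with normexp. *SLPI*, an antimicrobial protease inhibitor gene, differed by 0.65 ± 0.12 (limma adjusted p = 0.166), and its other 6 probes gave 0.49 to 0.60. *SLPI* passed with the intensity trend, as did *PI3* (0.42 ± 0.11) of the same group.

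**Figure D3:**
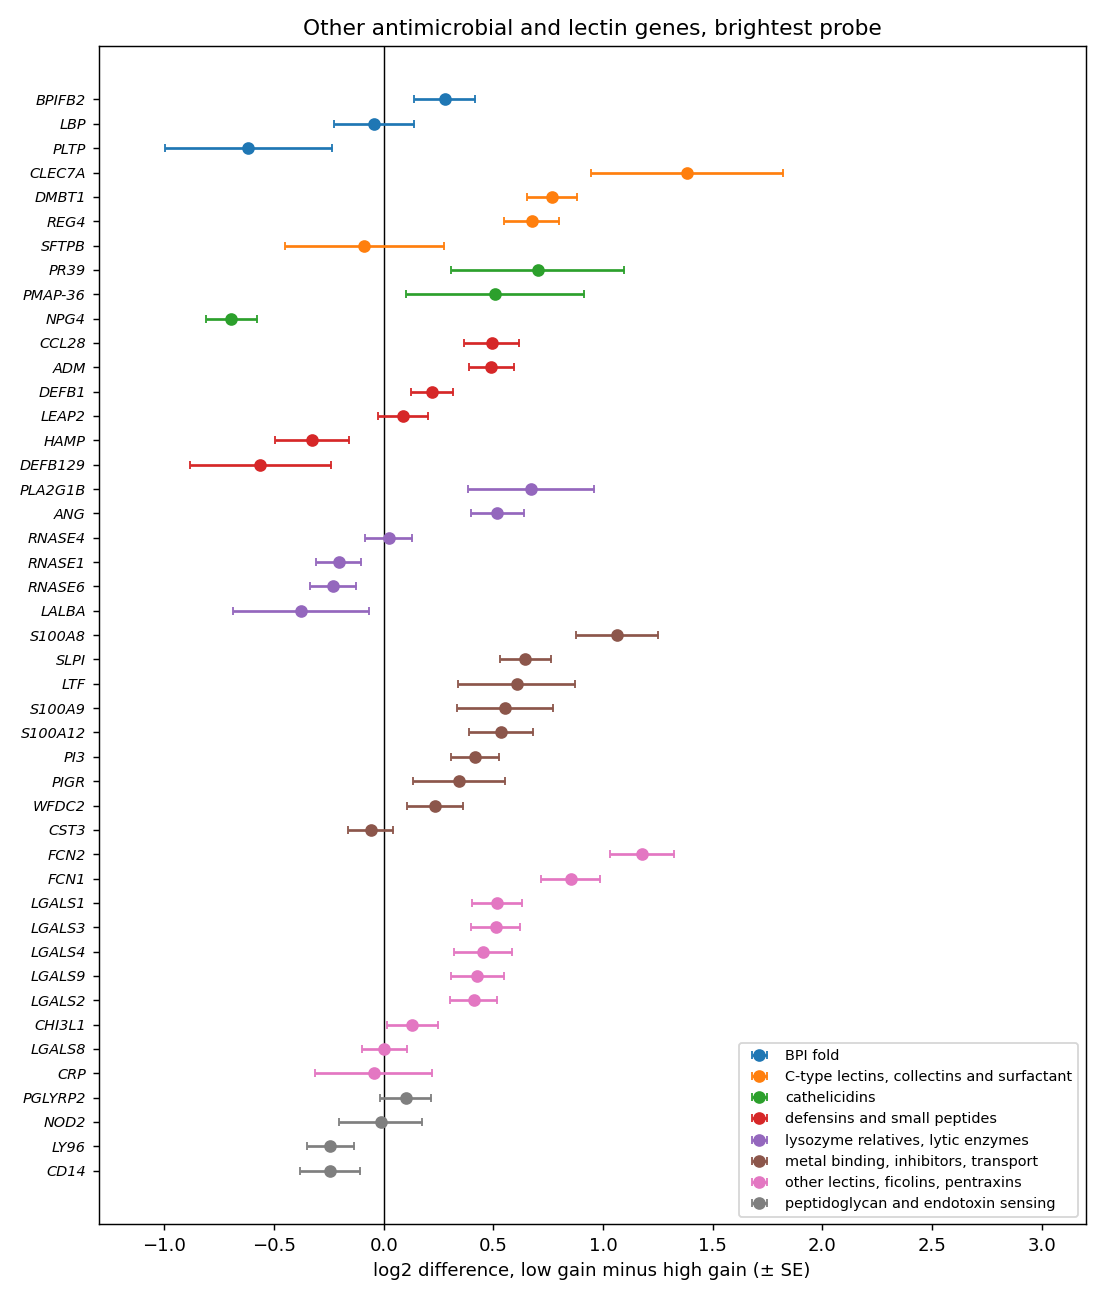
Log2 difference, low gain minus high gain (horizontal axis, bars are ± SE of the limma fit), of the brightest probe of 45 antimicrobial and lectin genes other than the 8, coloured by group. Ficolins, galectins and related lectins lie mainly right of 0, with a group median of 0.44. So does the group of metal-binding proteins, protease inhibitors and *PIGR*, with a median of 0.53. Genes that sense peptidoglycan or endotoxin lie at or left of 0 except *PGLYRP2*.

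Several cell types can supply these transcripts, and their markers were set beside the 8 genes. In tissue slices, a change in the number of cells of a type and a change in RNA per cell cannot be told apart. Of 9 listed goblet cell markers 4 were measured (*CLCA1*, *RETNLB*, *SPINK4* and *SPDEF*), and 1 of these passed the test, the secreted goblet cell protein gene *CLCA1* (1.73 ± 0.10, limma adjusted p = 0.0393), against 0.417% of all named genes. The means of all 4 were higher in low gain, as were those of the lectin genes, with a median difference of 1.02. Their summed signal, relative to the 75th percentile, was 175 to 179 in low gain and 86.5 to 93.0 in high gain. *CLCA1* and *SPINK4*, the brightest of the list, made up nearly all of that sum. *SPINK4* differed by 0.46 ± 0.10, *SPDEF* by 0.46 ± 0.11 and *RETNLB* by 1.57 ± 0.12. Enterocyte markers were higher for 5 of 6 genes, with sums of 399 to 404 in low gain and 323 to 324 in high gain, and 0 passed. The brightest were *ANPEP* (0.68 ± 0.10) and *APOA1* (-0.24 ± 0.12). The part of either cell type in the differences of *ITLN2* and *REG3G* was not tested.

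Macrophage markers were lower in low gain for all 4 measured genes of 9 listed, with a median of -0.35, none of them past the test. Their summed signal was 6.83 to 7.01 in low gain and 8.60 to 8.86 in high gain, and the brightest were *CD163* (-0.41 ± 0.10) and *CD86* (-0.29 ± 0.10). *SIGLEC1*, whose spot on low-gain array a did not pass the background flag, differed by -1.57 ± 0.41, and *CD14* by the values given above. Their part in the lower *LYZ* signal was not tested. Of 17 neutrophil markers, 8 were measured, and 5 of these were higher in low gain, with a median difference of 0.54 and 0 past the test. The 5 were *ARG1* (1.13), *S100A8* (1.06), *LTF* (0.61), *S100A9* (0.55) and *S100A12* (0.53). With normexp, *S100A8* gave 0.22, *LTF* 0.06, *S100A9* -0.0027 and *S100A12* 0.12. With bright backgrounds replaced, these genes gave 0.44, 0.48, 0.22 and 0.36 in the same order. The summed signal was 4.12 to 4.23 in low gain and 4.76 to 5.42 in high gain, the other way from the median, and its brightest genes were *MMP9* (-0.19 ± 0.10) and *NCF1* (-1.11 ± 0.23). The defining genes *MPO* and *ELANE* had no named probe. The neutrophils' part in the signals of *BPI*, *PGLYRP1* and *PMAP-23* was not tested.

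**Figure D4:**
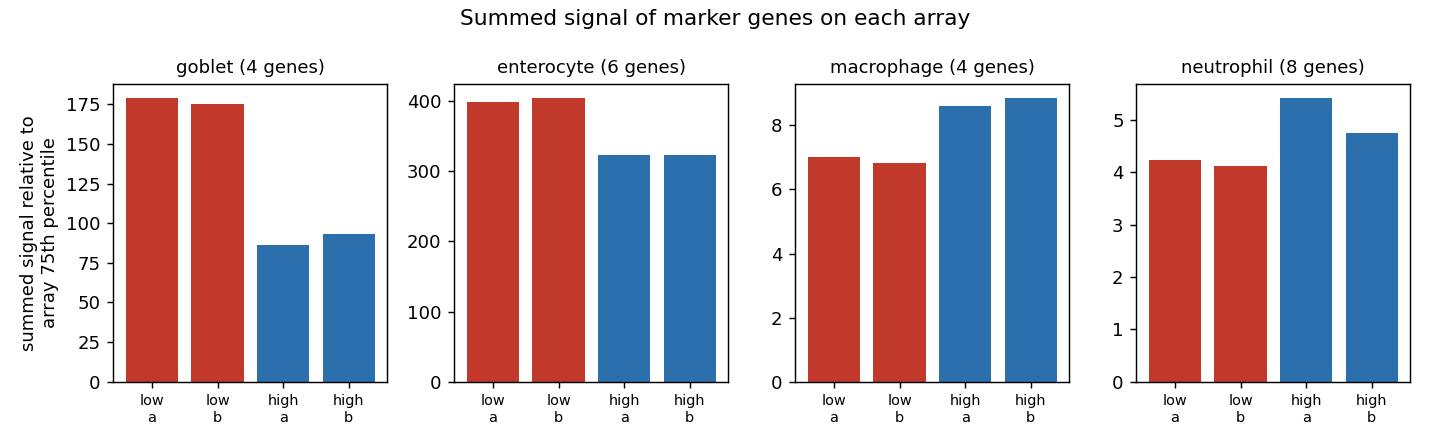
Summed signal of the measured marker genes of 4 cell types on each array (vertical axes start at 0, in units of the array's 75th percentile), low-gain arrays in red and high-gain arrays in blue. Goblet cell markers reach 175 to 179 in low gain and 86.5 to 93.0 in high gain, nearly all of it from *CLCA1* and *SPINK4*. Macrophage markers reach 6.83 to 7.01 in low gain and 8.60 to 8.86 in high gain.

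The named genes whose 4 array values, centred on their mean, lay closest to those of *BPI* were *LMO1*, *CCR3* and *SFTPD*, at root mean square distances of 0.31, 0.31 and 0.32 (log2) over 4 arrays and 2158 genes. *CCR3* was not well above background on either high-gain array, so its distance and its place in that order rest on background signal. *LMO1* read -0.25 and -0.28 in low gain and -3.30 and -3.28 in high gain. For *LYZ* the closest were *FABP4*, a fatty acid binding protein gene of fat cells, at 0.052, then *CALCB* at 0.16 and *C8G* at 0.20. *FABP4* read 0.04 and 0.08 in low gain and 1.53 and 1.70 in high gain, so its step of -1.55 was close to the -1.52 of *LYZ*. With 4 arrays in 2 groups, such distances mostly rank genes by the size of their step.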

How the data were processed

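Pooled ileum RNA was measured on 4 1-colour Agilent pig arrays. Per the file headers, Agilent Feature Extraction 10.7.3.1 produced the deposited scanner output, in which each spot has an intensity already treated for background by the software. The authors also deposited log2 values, made in a way not given in the sources used here. Over spots well above background they tracked the log2 processed signal of the same array with slopes of 1.01 (correlations from 0.988 to 0.999), were not centred per gene and had column medians of 5.70 to 5.78. Their direction is that of signal.

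From the log2 processed signal of each array, the 75th percentile of its 43803 non-control spots was subtracted. Outlier-flagged spots were removed, repeat spots of a probe were averaged, and 48 incomplete probes were dropped. Low minus high gain was fitted with limma 3.58.1 (R 4.3.3), without a block, with Benjamini-Hochberg adjustment over 33265 probes. The fit was tested on simulated data. Of 5779 probes with a RefSeq accession, 5461 matched a gene of the NCBI table of Sscrofa11.1. The files name no build, so no coordinates are given, and no sequences are shown.

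The 8 genes and all lists were chosen with earlier results of these data known. List names were matched by symbol. The rule named every probe of the 8 genes, list genes past the test, the 2 largest differences of each subgroup, the 2 brightest markers of each list, and the 3 closest profiles to *BPI* and *LYZ*; other genes named were chosen after their values were seen. Alternatives were normexp, quantile and median normalisation, the deposited values, other filters, an intensity trend, a letter block, means over probes and leaving out arrays. Normexp with bright backgrounds (over 3 MADs above the median) replaced was added after the data were seen. Over probes, deviations from the group means correlated at -0.029 between same-letter arrays, so the letters marked no shared pattern of deviations by probe. A shift common to all probes of an array cannot show in this correlation. Whether the letters pair the samples by design cannot be told from this value. The number of arrays limits the precision.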

Additional observations from a re-analysis of the deposited data

How the results depend on the processing

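Of the 14 probes of the 8 genes in the fit, 13 had the same sign under each alternative in which they had a value, the exception being *BPIFB1*, which had 0.01 with bright backgrounds replaced. A filter, the intensity trend and the letter block leave the log2 differences as they are. The number of probes past the test moved with the setting: over all probes it was 80 (32 higher and 48 lower in low gain), and 163 with median centring, 1250 with the intensity trend (751 higher and 499 lower), 12 with no filter, 0 with signal required on all 4 arrays, 0 with normexp, 1096 with bright backgrounds replaced (662 higher and 434 lower), and 0 to 37 when 1 array was left out. Over the 14 probes it was 6, and 10 with median centring, 12 with the intensity trend and with bright backgrounds replaced, and 0 with no filter, with signal on all 4 arrays, with normexp and without any 1 array. For the other antimicrobial and lectin genes it was 0, and 11 with the intensity trend and 9 with bright backgrounds replaced; it was 0 in the remaining alternatives. With the letter as a replicate block the counts were 0 over all probes and 0 over the 14 probes, although 4703 and 13 had an unadjusted p under 0.05. The cause of these shifts was not tested. Fits without an array hold fewer samples, and the fit with the block estimates 1 more term from the same 4 arrays. Low signal limits *BPIFB1* and *PMAP-23*.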

Other observations

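Other marker lists were set beside the 8 genes as well. Of 5 measured mast cell and eosinophil markers, 4 were higher in low gain, with sums of 3.64 to 3.70 in low gain and 3.39 to 3.41 in high gain. The brightest were *KIT* (-0.02 ± 0.12) and *GATA2* (0.27 ± 0.20, with overlapping arrays). *CCR3* had the largest difference of the 5, 2.565 ± 0.23 (limma adjusted p = 0.0807), which rests on background signal in high gain. Of the crypt markers, *ASCL2* (0.53 ± 0.11) and *TOP2A* (-0.17 ± 0.10) were measured, with sums of 9.68 to 9.79 in low gain and 10.1 to 10.3 in high gain. The surfactant list summed to 1.451 to 1.497 in low gain and 0.428 to 0.445 in high gain, and *SFTPD* made up nearly all of it. As *SFTPD* is itself one of the 8 genes, this sum restates its difference and adds nothing to it.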
